A study of Mus musculus with 18 samples.

Results

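The alpha-crystallins and their relatives, the small heat shock proteins, were followed across mouse lenses that carried a cataract mutation in either alpha-crystallin gene. The 8 genes were chosen by symbol, as *Cryaa*, *Cryab*, *Hspb1*, *Hspb2*, *Hspb3*, *Hspb6*, *Hspb7* and *Hspb8*, out of the 40800 genes of the count table, and all 8 were found there. RNA of pooled lenses had been sequenced in 18 libraries, 3 in each of 6 groups, all from C57BL/6J mice. In the *Cryaa*-R49C line the lenses were 2 days old, and the groups were the wild type (*Cryaa*-WT), the heterozygous knock-in (*Cryaa*-R49C-het) and the homozygous knock-in (*Cryaa*-R49C-homo). In the *Cryab*-R120G line the lenses were 14 days old, and the groups were the same 3, *Cryab*-R120G-homo, *Cryab*-R120G-het and their wild type (*Cryab*-WT). Each knock-in replaced 1 arginine codon of the mouse gene. Line and age changed together, so that they cannot be told apart in any comparison between the lines.

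Alpha-crystallin is a large assembly of alphaA-crystallin, made from *Cryaa*, and alphaB-crystallin, made from *Cryab*. Both belong to the small heat shock proteins, which share a conserved alpha-crystallin domain, bind partly unfolded proteins without using ATP and hold them in solution. In the lens fibre cell, which loses its nucleus and cannot replace its proteins, they serve both as structural proteins and as chaperones, and arginine mutations of either gene cause hereditary cataract. Of the other members, *Hspb1* (HSP25 in the mouse) and *Hspb8* are widely expressed stress proteins, *Hspb6* encodes HSP20, and *Hspb2*, *Hspb3* and *Hspb7* are best known from muscle and heart.

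The mutated codons are shown first, because they define the groups. The stretches are the reference coding sequence in the GENCODE annotation of GRCm38, read 5′ to 3′ on the plus strand, with the arginine codon in capitals. Codon 49 of *Cryaa* lies in exon 1 of 3 (chr17:31678145-31678147), and codon 120 of *Cryab* lies in exon 3 of 3 (chr9:50756325-50756327). The 63 bases around each codon are chr17:31678115-31678177 and chr9:50756295-50756357.
Cryaa codon 49: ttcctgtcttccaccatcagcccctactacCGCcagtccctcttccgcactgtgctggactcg
Cryab codon 120: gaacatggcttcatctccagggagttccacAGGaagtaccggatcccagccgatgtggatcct
Gene counts do not separate the mutated allele from the wild-type allele, so the levels of *Cryaa* and *Cryab* below do not check the genotype labels.

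Upstream sequences of *Hspb1* and *Hspb6* are shown because these were the members that fell in *Cryaa*-R49C-homo lenses. Each is the part from base -200 to base -51 before a RefSeq start (GRCm38.p6, plus strand), chr5:135887719-135887868 for *Hspb1* and chr7:30553101-30553250 for the second of the *Hspb6* starts. Capitals mark matches to GAANNTTC, a pair of the inverted units of a heat shock element. It reads the same on both strands.
Hspb1 upstream: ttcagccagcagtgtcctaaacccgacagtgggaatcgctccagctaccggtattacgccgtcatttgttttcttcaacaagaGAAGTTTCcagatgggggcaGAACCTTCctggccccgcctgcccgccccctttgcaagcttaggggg
Hspb6 upstream, second start: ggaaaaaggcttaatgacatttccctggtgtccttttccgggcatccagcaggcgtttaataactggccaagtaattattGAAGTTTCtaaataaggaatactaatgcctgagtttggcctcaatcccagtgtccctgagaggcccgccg
RefSeq windows of 300 bases (250 before a start and 50 after it) were given for 6 of the 8 members, and GAANNTTC occurred in 7.86% of all 32851 such windows. *Hspb1* held it at -117 to -110 and at -97 to -90, the second start of *Hspb6* at -120 to -113, *Hspb3* at -224 to -217 and *Hspb8* at 3 to 10 after its start. The letters were not in the windows of *Cryaa*, *Hspb7* or the first start of *Hspb6*. A match is a description of the sequence and was not tested as a binding site.

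Library totals lay between 14272174 and 29639719 counts. Levels within a gene are given as CPM, counts relative to the library's total after scaling with the trimmed mean of M-values (TMM), and levels between genes as the deposited RPKM, reads relative to gene length and to the library's total. The 16 crystallin genes took between 23.8% and 76.1% of a library, and Gm42418, a single other gene, between 2.53% and 42.6%. The library *Cryaa*-R49C-homo replicate 1 stood apart from its replicates, with Gm42418 at 2.53% against 24.5% and 42.6%. Of the markers checked, the fibre gene *Lim2* and the epithelial gene *Pdpn* were listed at 0 in every library, whereas the other 14 fibre genes and 7 epithelial genes passed the filter on low counts. The libraries are bulk RNA, in which fewer cells of a type and less RNA per cell cannot be told apart. Differences were tested with edgeR's quasi-likelihood test over the 13938 genes that passed the filter, and a difference was called at a Benjamini-Hochberg false discovery rate (FDR) of at most 0.05. Of the 8 members 7 passed the filter, and *Hspb7* did not.

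Per length, the family spanned a very wide range in the lens. In *Cryaa*-WT lenses, *Cryaa* ranked 2 of the 22468 genes with a deposited RPKM above 0, at 111757 ± 6700 (SD, n = 3), and *Cryab* ranked 14, at 8867 ± 63.0. *Hspb3* followed at 26.5 ± 1.38, *Hspb2* at 21.7 ± 2.00, *Hspb1* at 16.6 ± 6.09 and *Hspb6* at 10.4 ± 2.18. *Hspb8* was at 1.03 ± 0.141. Of these neighbours, *Hspb2* and *Hspb1* overlapped in their libraries (19.4 to 23.0 and 10.3 to 22.5), as did *Hspb1* and *Hspb6* (8.73 to 12.9), whereas the libraries of *Hspb3* (24.9 to 27.4) lay above those of *Hspb2*.

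In *Cryab*-WT lenses at day 14 the order was another one. *Cryaa* again ranked 2, at an RPKM of 119086 ± 15790, and *Cryab* ranked 13, at 17790 ± 3900. *Hspb1* took the third place among the members with 99.1 ± 36.3 and ranked 89 of 19512 genes, against 868 in *Cryaa*-WT. *Hspb2* (15.6 ± 1.98), *Hspb3* (10.1 ± 0.722), *Hspb6* (6.98 ± 1.39) and *Hspb8* (0.168 ± 0.0369) came below it, and no pair of neighbours overlapped in this group.

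*Cryaa* was first among the members in all 6 groups and *Cryab* second. In *Cryaa*-R49C-homo lenses *Hspb1* was at an RPKM of 0.534 ± 0.311 and came after *Hspb8* (1.90 ± 0.636), and it ranked 10966 of 22370 genes there. In the *Cryab*-R120G groups *Hspb1* stayed in the third place, at 132 ± 19.2 in het and 145 ± 35.9 in homo.

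**Figure D1:**
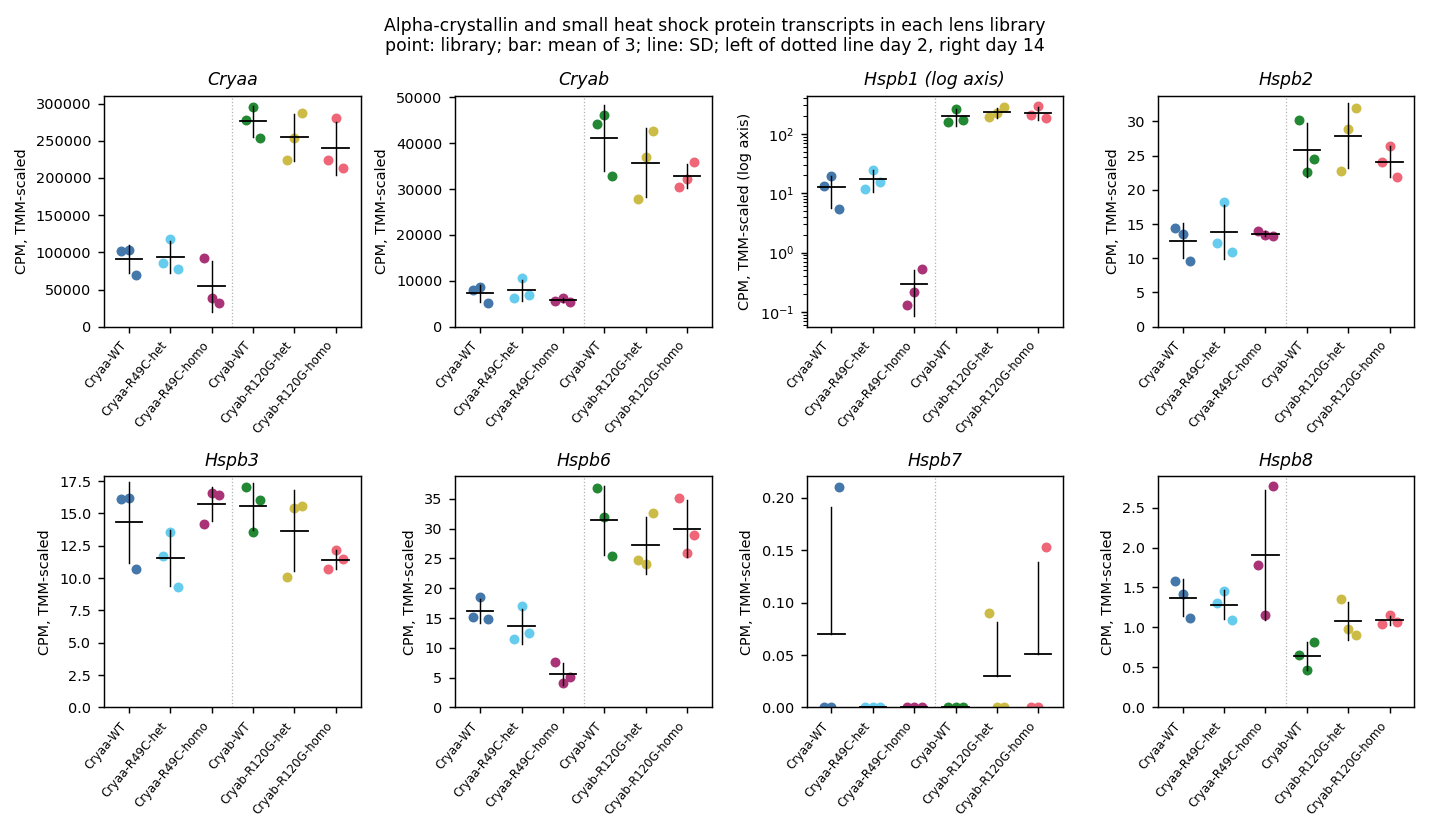
CPM (TMM-scaled) of each member in each library, by group; points are libraries, bars are means of 3, vertical lines are SDs, and the axis is logarithmic for Hspb1 only. The 3 Cryaa-R49C-homo libraries of Hspb1 sit between 0.132 and 0.532 CPM, below the lowest Cryaa-WT library at 5.32, and those of Hspb6 between 4.08 and 7.68, below 14.8.

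In *Cryaa*-R49C-homo lenses 2 members, *Hspb1* and *Hspb6*, were lower than in WT lenses, and no member was higher. This was 2 of the 7 members tested, where 9.79% of all genes were called in this comparison and 4.92% were called lower. *Hspb1* and *Hspb6* were also the 2 members that did not overlap between the homo and WT libraries, against 24.5% of all genes. Against het they were again the 2 called members, where 8.32% of all genes were called and 3.63% were called lower, and 3 members, with *Hspb3*, did not overlap, against 22.0%. *Cryaa* itself was 0.76 lower on the log2 scale and *Cryab* 0.33 lower, without passing the test. The median log2 fold change was -0.33 over the 7 members and 0.00 over all genes (0.00469 before rounding).

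*Hspb1*, at chr5:135887919-135889563, had 314, 571 and 152 counts in the *Cryaa*-WT libraries and 433, 787 and 615 in the het libraries. In the homo libraries 6, 7 and 14 counts remained. As CPM these were 13.4, 19.3 and 5.32 in WT, 11.8, 24.9 and 15.3 in het, and 0.132, 0.220 and 0.532 in homo. All 3 homo libraries lay below all others of the line, and replicate 1, which stood apart for *Cryaa* and Gm42418, was the lowest of them. *Hspb1* was 45.6-fold lower in homo than in WT lenses (log2 fold change -5.51 ± 0.53, SE, FDR = 1.07e-06) and 62.3-fold lower than in het lenses (-5.96 ± 0.54, FDR = 5.71e-07). It had the place 7 from the lowest log2 fold change among the 13938 genes in both comparisons. Without any 1 library, or with another test or scaling, the fold change against WT stayed between -6.17 and -4.99 and was called each time.

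*Hspb6*, at chr7:30552178-30555443, encodes a phosphorylated relative of *Hspb1*. Its CPM was 15.2, 18.5 and 14.8 in the *Cryaa*-WT libraries, 11.4, 17.0 and 12.5 in het, and 7.68, 4.08 and 5.13 in homo. The homo libraries lay below both other groups, while het and WT overlapped. *Hspb6* was 2.86-fold lower in homo than in WT lenses (-1.52 ± 0.25, FDR = 0.000245) and 2.41-fold lower than in het lenses (-1.27 ± 0.24, FDR = 0.00202), and both calls held under every alternative. The annotation has it share 122 exonic bases with *Proser3* and 3 with *Lin37*, both on the opposite strand, and the strand setting of the counting is not stated. *Proser3* had at most 36 counts in a library and *Lin37* at most 379.

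*Cryaa*, at chr17:31677807-31681733, had a CPM of 101247, 103226 and 69926 in WT libraries of its line, 85186, 117930 and 77121 in het, and 92896, 38232 and 31365 in homo. Replicates 2 and 3 of homo lay below every other library of the line, and replicate 1 lay within the WT range. The difference from WT was -0.76 ± 0.33 (95% interval -1.43 to -0.08, FDR = 0.150), and from het it was -0.79 ± 0.33 (FDR = 0.144). Without homo replicate 1 the difference from WT was -1.40 (FDR = 0.000722) and that from het -1.43 (FDR = 0.000471), both called. With all libraries kept *Cryaa* was called as well with the replicate number as a block, against WT (-0.85, FDR = 0.0436) and against het (-0.91, FDR = 0.0364), and with a likelihood ratio test (-1.18, FDR = 0.000294, and -1.21, FDR = 0.000215). The count of members called against WT was 3 in each of these fits instead of 2, so the call depended both on the test and on this library.

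*Cryab*, at chr9:50751325-50756636, had a CPM of 8025, 8694 and 5236 in *Cryaa*-WT, 6313, 10628 and 6847 in *Cryaa*-R49C-het, and 5672, 6364 and 5445 in *Cryaa*-R49C-homo. The 3 groups overlapped. The homo difference from WT was -0.33 (95% interval -0.87 to 0.21, FDR = 0.489), and with scaling to library size alone its sign turned, to 0.15. That scaling moved the median of all genes in this comparison to 0.41, and *Cryab* lay 0.26 below that median.

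The ratio of *Cryaa* to *Cryab* counts uses no scaling between libraries. It was 12.6, 11.9 and 13.4 in *Cryaa*-WT libraries, 13.5, 11.1 and 11.3 in het, and 16.4, 6.01 and 5.76 in homo. Homo replicates 2 and 3 had the lowest ratios of the line and replicate 1 the highest, so the homo mean of 9.38 ± 6.06 (SD, n = 3) stood for no library. The log2 ratio of homo and WT differed by -0.61 (exact permutation test, 2-sided, p = 0.4), where 3 libraries against 3 cannot give less than 0.1. As a share of all gene counts *Cryaa* was 13.4%, 12.4% and 14.0% in WT, 15.3%, 17.0% and 15.7% in het, and 21.0%, 7.69% and 5.37% in homo.

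**Figure D2:**
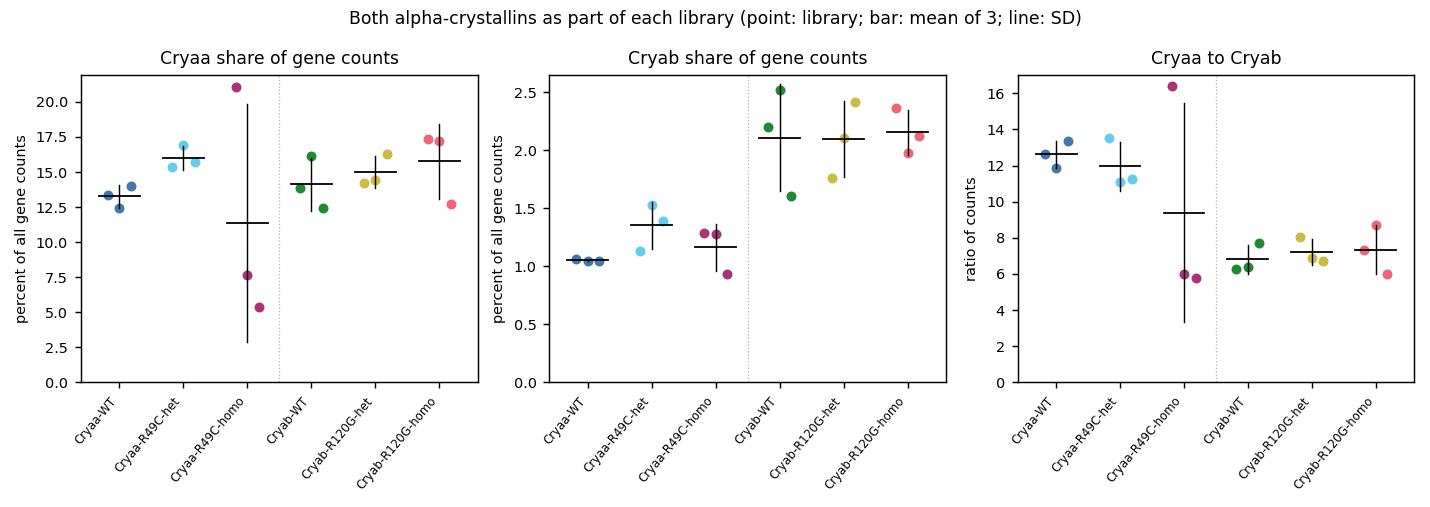
Share of Cryaa and of Cryab in all gene counts (percent) and the ratio of Cryaa to Cryab counts, by group; points are libraries, bars are means of 3 and vertical lines are SDs. Cryaa-R49C-homo replicate 1 has the highest ratio of its line (16.4), and replicates 2 and 3 the lowest (6.01 and 5.76).

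No difference was called for the other members in *Cryaa*-R49C-homo lenses. *Hspb2*, which lies head to head with *Cryab* on chromosome 9 (chr9:50751078-50752354, minus strand), had a CPM of 14.5, 13.6 and 9.66 in WT, 12.3, 18.3 and 10.9 in het, and 14.0, 13.4 and 13.3 in homo. The difference of homo from WT was 0.11 (95% interval -0.35 to 0.57). In the GENCODE annotation the longer *Cryab* transcripts share 252 exonic bases with *Hspb2* on the opposite strand, while 613 bases part the main transcripts of both genes. The authors counted unambiguous reads, and the strand setting is not given. Per 1000 *Cryab* counts *Hspb2* had 1.56 to 1.94 counts in the WT and het libraries of the *Cryaa* line and 2.11 to 2.47 in homo, all above them, and between 0.489 and 0.818 in the *Cryab* line.

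*Hspb3*, a gene of a single exon on chromosome 13 (chr13:113662896-113663676), had a CPM of 16.1, 16.2 and 10.7 in *Cryaa*-WT, 11.7, 13.6 and 9.29 in het, and 14.2, 16.6 and 16.4 in homo. All homo libraries lay above all het libraries, but the difference of 0.45 was not called (FDR = 0.215), and homo and WT overlapped (0.13, 95% interval -0.32 to 0.58). *Hspb8*, at chr5:116408491-116422864, works with *Bag3* in removing misfolded proteins. It had 37, 42 and 32 counts in WT, 48, 46 and 44 in het, and 81, 37 and 73 in homo, and its homo difference of 0.47 (95% interval -0.22 to 1.16, FDR = 0.425) rested on these low counts. *Hspb7*, at chr4:141420779-141425311, had 6 counts in *Cryaa*-WT replicate 3 and 0 in the other 8 libraries of the line. In the 15 libraries of the series without a count, a count of 0 allows up to 0.101 to 0.195 CPM before TMM scaling, which covers counting error only. The 14 skeletal muscle markers together were at 33.4 CPM in *Cryaa*-WT replicate 3 and between 1.59 and 11.5 in the rest of the line, and their part in the *Hspb7* counts was not tested.

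Heterozygous lenses of the *Cryaa* line showed no called member, in a comparison where 1 of 13938 genes was called (0.00717%) and 708 had an unadjusted p under 0.05. No member did, DESeq2 called none either, and no member was apart between het and WT, as 21.9% of all genes were. The log2 differences ran from -0.31 for *Hspb3* to 0.45 for *Hspb1*, whose 95% interval of -0.37 to 1.27 leaves room for a rise as well as a fall. The *Cryaa* difference was 0.03 (95% interval -0.64 to 0.70). *Cryaa*-WT replicate 3 was the lowest WT library for all 7 members, and het replicate 2 was the highest het library for all 7.

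In the *Cryab*-R120G line no member was called in any of the 3 comparisons. The share of all genes called was 0.00717% for het against WT, 0.0502% for homo against WT and 0% for homo against het, and DESeq2 called no member either. With the replicate number as a block, by which *Cryab*-WT and homo libraries are paired, 18 genes instead of 7 were called in homo against WT (0.129%) and 3 instead of 1 in het against WT (0.0215%), again without a member. None of the members had an unadjusted p under 0.05 in these comparisons, whereas 532, 851 and 273 genes did. The median log2 fold change of the members was -0.11, -0.09 and -0.09.

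The mutated gene itself, *Cryab*, had a CPM of 44182, 46180 and 32915 in *Cryab*-WT, 27770, 37035 and 42600 in het, and 30522, 32272 and 35820 in homo. The groups overlapped, and the homo difference was -0.32 (95% interval -0.86 to 0.22, FDR = 0.944), or 0.03 with scaling to library size alone, which moved the median of all genes to 0.37 and left *Cryab* 0.33 below it. *Cryaa* was at 278226, 295660 and 254005 in WT, 223636, 254367 and 286645 in het, and 224238, 281007 and 213974 in homo. Its homo difference was -0.20 (95% interval -0.87 to 0.47), and with library size alone it lay 0.21 below that median. The ratio of *Cryaa* to *Cryab* counts was 6.81 ± 0.791 in WT, 7.22 ± 0.728 in het and 7.34 ± 1.37 in homo, so that means differed by less than the spread between libraries (exact permutation p = 0.5 and 0.7 against WT).

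*Hspb1* was at 158, 267 and 169 CPM in *Cryab*-WT, 192, 227 and 280.0 in *Cryab*-R120G-het, and 209, 293 and 183 in *Cryab*-R120G-homo. These groups overlapped throughout, with a homo difference of 0.21 (95% interval -0.60 to 1.01). *Hspb6* was at 36.8, 32 and 25.4 in WT, 24.8, 24.1 and 32.7 in het, and 35.2, 25.8 and 29.0 in homo, with a homo difference of -0.06 (95% interval -0.56 to 0.43). *Hspb2* was at 30.2, 22.6 and 24.5 in WT, 22.7, 29.0 and 32 in het, and 24.1, 26.3 and 21.9 in homo. It overlapped between the groups as well, with a homo difference of -0.09.

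Groups were apart for *Hspb3* and *Hspb8*. *Hspb3* was at 17.1, 13.5 and 16 CPM in *Cryab*-WT and at 10.7, 12.2 and 11.5 in homo, all of them lower, while het had 10.1, below every homo library, and 15.4 and 15.5, within the WT range. *Hspb8* had 6, 7 and 11 counts in WT, 15, 15 and 13 in het and 16, 21 and 14 in homo, or 0.660, 0.467 and 0.816 CPM against 1.35, 0.978 and 0.910 and against 1.05, 1.16 and 1.07. Both mutant groups of *Hspb8* lay above WT, but neither the difference of 0.73 in het nor that of 0.76 in homo (95% interval -0.09 to 1.60, FDR = 0.857) was called, and nor was that of *Hspb3* in homo (-0.44, 95% interval -0.90 to 0.02, FDR = 0.832). Of all genes 4.62% lay above WT in het without overlap, and in homo 4.51% lay above and 4.49% below. Between homo and het no member was apart, against 6.86% of all genes. Other lists stood apart in the same way. The summed CPM of the 7 pigment cell markers was 3.19 to 4.47 in WT, 7.35 to 26.4 in het and 7.72 to 15 in homo (list medians 2.37 and 1.78 against WT), and that of the 14 skeletal muscle markers was 1.80 to 2.20, 2.41 to 12.7 and 2.29 to 3.54. The 13 fibre genes that are no crystallins summed to 14764 to 17197 in WT, 9214 to 14096 in het and 8484 to 13809 in homo, both lower without overlap, though no gene of the list was called. The 14 beta- and gamma-crystallins summed to 682731 to 927725 in homo, below the lowest WT library at 938117, on the TMM scale. As a share of all gene counts, which TMM does not touch, the groups overlapped. All crystallins, with *Cryaa* and *Cryab*, took 62.8% to 70.6% in WT and 60.1% to 76.1% in homo. The part of these in the *Hspb3* and *Hspb8* values was not tested. *Hspb7* had 1 count in het replicate 1 and 2 in homo replicate 3, and the skeletal muscle markers were at 12.7 and 2.29 CPM there.

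**Figure D3:**
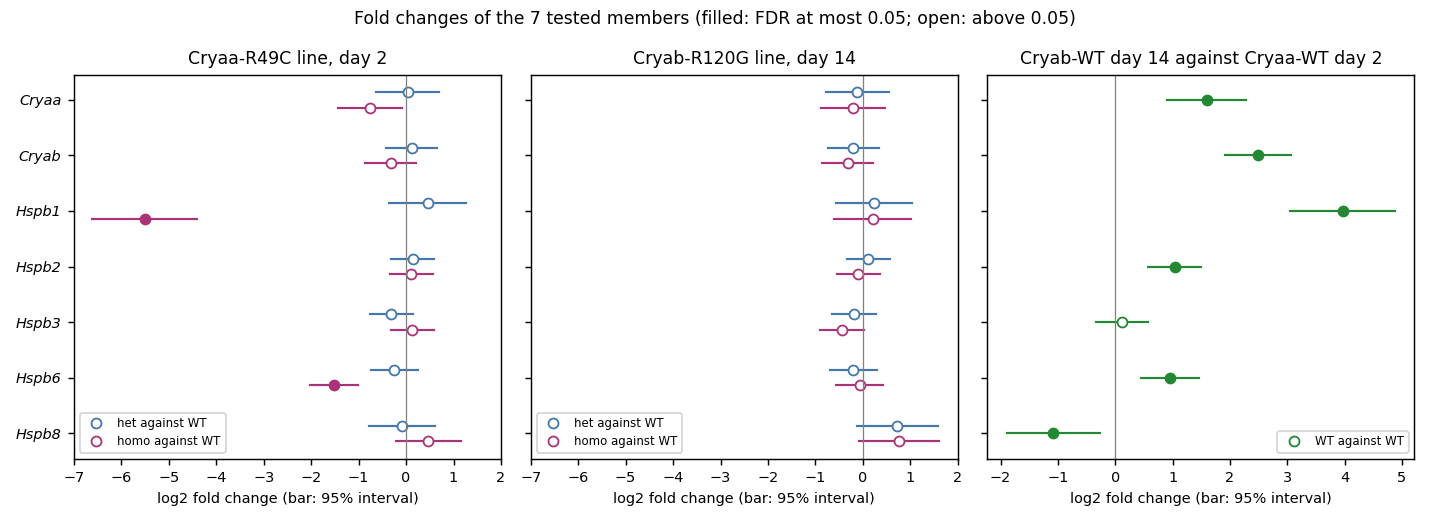
log2 fold change of the 7 tested members with 95% intervals, for het and homo against WT in each line and for Cryab-WT at day 14 against Cryaa-WT at day 2; filled points are called and open points are not. In the Cryaa line Hspb1 (-5.51) and Hspb6 (-1.52) are the called members in homo, no member is called in the Cryab line, and 6 are called between the WT groups, where the signs of Hspb2, Hspb6 and the uncalled Hspb3 turn with library size alone.

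The effect of homozygosity differed between the lines for 2 members, *Hspb1* and *Hspb6*, by the test of the difference itself, where 2.91% of all genes were called and 1.75% were called higher in the *Cryab* line. The *Hspb1* effect was 5.72 ± 0.65 (SE) higher on the log2 scale in the *Cryab* line than in the *Cryaa* line (FDR = 3.56e-05). The *Hspb6* effect was 1.45 ± 0.34 higher (FDR = 0.0198), and this call was lost with library size alone (1.38, FDR = 0.106) and without any 1 of 4 libraries, *Cryaa*-WT replicate 2 (1.36), *Cryaa*-R49C-homo replicate 2 (1.26), *Cryab*-WT replicate 3 (1.32) or *Cryab*-R120G-homo replicate 1 (1.32). For *Cryaa* the effects differed by 0.55 (95% interval -0.40 to 1.5, FDR = 0.619), which became 1.19 (FDR = 0.0293) without *Cryaa*-R49C-homo replicate 1. Mutated gene and age differ between the lines as well, so that neither can be told apart as a source.

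Between the WT groups, 6 of the 7 tested members differed at day 14 from day 2, where 23.2% of all genes were called, 11.7% higher and 11.5% lower. *Cryab* (2.49 ± 0.28, FDR = 1.58e-06), *Cryaa* (1.59 ± 0.33, FDR = 0.00142) and *Hspb1* (3.97 ± 0.44, FDR = 3.45e-06) were higher on the TMM scale. So were *Hspb2* (1.03 ± 0.22, FDR = 0.00195) and *Hspb6* (0.95 ± 0.24, FDR = 0.00635), and the libraries of these 5 genes lay above without overlap, as did those of 20.2% of all genes. *Hspb3* did not differ by the test (0.12, 95% interval -0.34 to 0.57). *Hspb8* was lower (-1.08 ± 0.39, FDR = 0.0479) without overlap, as were 22.9% of all genes, a call that was lost without any 1 of the 6 libraries, with an FDR of 0.0618 to 0.192. It was also lost with DESeq2 (FDR = 0.0562), with scaling without crystallins and Gm42418 (0.0568), with every gene kept (0.109) and with the replicate block (0.0663). The fold change itself stayed between -1.31 and -0.87 without any 1 library and between -1.14 and -1.05 in these 4 fits.

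The scale mattered in this comparison. Crystallins took 46.3% to 49% of the *Cryaa*-WT and 62.8% to 70.6% of the *Cryab*-WT counts. TMM factors were 1.2 to 2.26 for libraries of the *Cryaa* line but 0.488 to 0.774 for those of the *Cryab* line, and with library size alone the median of all genes moved to -1.61. On that scale *Hspb1* (2.57) and *Cryab* (1.0) remained higher, *Cryaa* differed by 0.09 without a call, and *Hspb3* became called as lower (-1.39, FDR = 1.74e-05), as *Hspb8* was (-2.59, FDR = 1.65e-05). *Hspb2* was at -0.48 (FDR = 0.0534) and *Hspb6* at -0.58 (FDR = 0.0701), both without a call. Relative to that median *Hspb2*, *Hspb6* and *Hspb3* lay at 1.14, 1.03 and 0.22. The *Cryaa* to *Cryab* ratio, which no scaling touches, was 12.6 ± 0.741 in *Cryaa*-WT and 6.81 ± 0.791 in *Cryab*-WT (n = 3 each), without overlap (exact permutation p = 0.1, the smallest that 3 against 3 allows, and 0.5 after Benjamini-Hochberg adjustment over the 5 comparisons of the ratio).

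Of the 3 further genes of the family name, *Hspb9* and *Odf1*, which are known from testis, had at most 3 and 4 counts in a library. *Hspb11*, which encodes a ciliary transport protein, was at 7.66 ± 0.719 CPM in *Cryaa*-WT and 20.2 ± 1.5 in *Cryab*-WT (1.4 ± 0.22, FDR = 9.57e-05, and -0.15 with library size alone) and was called in no comparison with a mutant.

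Of 23 tested cytosolic chaperones and co-chaperones 3 were lower in *Cryaa*-R49C-homo than in WT lenses and none was higher, with a list median of -0.07. Of all genes 9.79% were called in this comparison and 4.92% were called lower. *Dnajb1*, the J-domain partner of HSP70, was at 142, 146 and 99.4 CPM in WT and at 59.8, 24.9 and 22.3 in homo (-1.86 ± 0.31, FDR = 0.000346). *Dnajb2*, a J-domain protein that also acts on misfolded proteins, was at 28.9 ± 8.36 in WT and 9.07 ± 1.44 in homo (-1.67 ± 0.25, FDR = 8.67e-05). Both were called under all 9 alternatives tried for them, whereas *Hspa4l* (-0.58 ± 0.18, FDR = 0.0469) was called under 4 of 9. Without homo replicate 1 the list had 9 lower and 3 higher genes, where 12.3% of all genes were lower and 9.20% higher. With library size alone it had 2 lower and 5 higher, where 1.82% of all genes were lower and 13.5% higher.

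In *Cryab*-R120G-homo lenses 1 of the 23 chaperones was called, against 0.0502% of all genes, and this was *Hspa8*, the constitutive HSP70. It was at 149, 222 and 212 CPM in *Cryab*-WT, 106, 137 and 170 in het, and 73.9, 58.9 and 29.9 in homo (-1.84 ± 0.29 against WT, FDR = 0.00740), and was called under 6 of 8 alternatives. In the *Cryaa* line its 9 libraries lay between 62.8 and 130 CPM without a call. Between the WT groups 12 of the 23 were higher at day 14, against 11.7% of all genes, and with library size alone 13 were lower, against 82.0% of all genes.

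Of 17 transcription factors known to act on alpha-crystallin or heat shock genes, 1 was lower and 1 higher in *Cryaa*-R49C-homo than in WT lenses, a share near the 9.79% of all genes called there. *Hsf4*, the heat shock factor of the lens, was at 62.8, 69.4 and 43.1 CPM in WT and at 35.7, 30.2 and 39.3 in homo (-0.74 ± 0.22, FDR = 0.0333), and was called under 5 of 9 alternatives. *Pitx3*, a lens homeobox factor, was at 5.87 ± 2.67 in WT and 13.2 ± 5.20 in homo (1.16 ± 0.34, FDR = 0.0297), and was called under 8 of 9 alternatives, with a highest FDR of 0.0827. None of the 17 was called in the *Cryab* line. Between the WT groups *Hsf4* was at 58.4 ± 13.7 at day 2 and 127 ± 1.87 at day 14 (1.12 ± 0.22, FDR = 0.000854, and -0.37 with library size alone).

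Among other lens genes, of the 14 tested beta- and gamma-crystallins 4 were lower in *Cryaa*-R49C-homo than in WT lenses and none was higher, where 4.92% of all genes were lower, with *Crygb* at -1.57 ± 0.28 (FDR = 0.000766) and a list median of -0.72. This count was 1 with library size alone, where 1.82% of all genes were lower, and 7 without homo replicate 1, where 12.3% were. Of 14 tested fibre genes, which include the crystallin genes *Crybb2* and *Crygs* of the list before, 10 were lower, with a median of -1.47 (9 of 12 and -1.66 without these 2), among them *Lctl* (-3.82 ± 0.29, FDR = 9.40e-09), *Birc7* (-1.94 ± 0.26) and *Lgsn* (-2.23 ± 0.32). The summed CPM of the fibre list without crystallins was 3413 to 5562 in WT and 1286 to 1950 in homo. In the *Cryab* line this sum was 14764 to 17197 in WT and 8484 to 13809 in homo, where neither *Hspb1* nor *Hspb6* was called. The part of fibre genes in the fall of *Hspb1* and *Hspb6* was not tested. Of the 7 tested epithelial genes 1 was lower, the connexin gene *Gja1* (-2.0 ± 0.28), and the summed CPM overlapped at 198 to 221 in WT and 216 to 234 in homo. No gene of these 3 lists was called in the *Cryab* line, where the list medians of homo against WT were -0.35, -0.26 and -0.25.

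**Figure D4:**
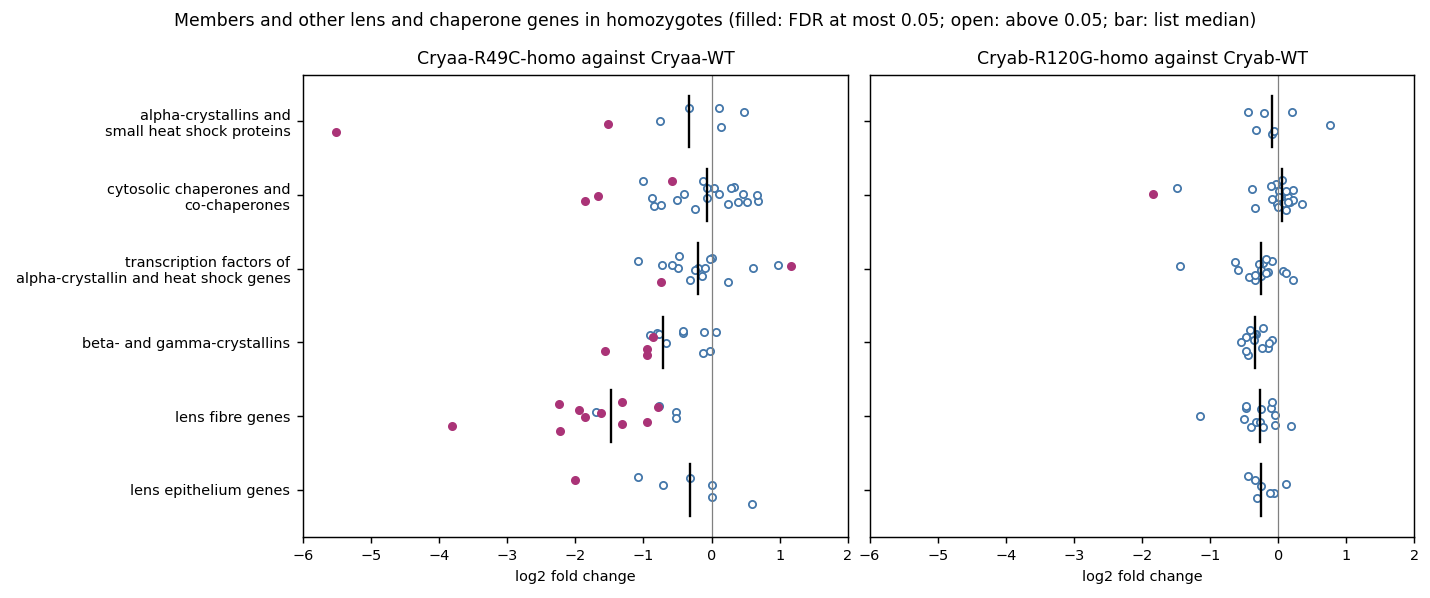
log2 fold change of homo against WT for each tested gene of 6 lists, in the Cryaa line (left) and the Cryab line (right); filled points are called, open points are not, and bars are list medians. In the Cryaa line Hspb1 lies at -5.51 and the fibre gene Lctl at -3.82, and in the Cryab line 1 gene, Hspa8 at -1.84, is called.

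Markers of other cell types were present and varied between libraries. Of all genes 9.79% were called in *Cryaa*-R49C-homo against WT lenses, and 4.92% were called lower. In *Cryaa*-R49C-homo against WT lenses, the summed CPM of 8 macrophage markers was 15.2 to 29.5 against 6.34 to 14.7 (2 of 8 higher, *C1qa* and *Aif1*), and that of 7 pigment cell markers 5.43 to 13.3 against 17.2 to 31.0 (2 of 6 tested lower, *Pmel* and *Mlana*). For 11 smooth muscle and vessel markers it was 32.4 to 73.5 against 29.1 to 43.3 (1 of 10 tested higher, *Cdh5*), for 14 skeletal muscle markers 2.58 to 3.83 against 1.69 to 33.4 (0 of 5 called), for 8 photoreceptor markers 15.6 to 26.2 against 10.6 to 42.3 (0 of 8) and for 7 erythrocyte markers 41.5 to 149.7 against 36.8 to 57.8 (0 of 5). The part of these cells in the fall of *Hspb1* and *Hspb6* was not tested. In the *Cryab* line no gene of the 6 lists was called against WT. Of all genes 0.00717% were called there in het and 0.0502% in homo. List medians were positive in both mutant groups for all 6. Photoreceptor markers ran from 21.8 to 784 in WT, from 96.8 to 606 in het and from 199 to 1179 in homo. Erythrocyte markers ran from 15.6 to 146 in WT, 134 to 451 in het and 49.2 to 178 in homo. The paper lists *Hba-a1*, *Hba-a2*, *Hbb-bs*, *Hbb-bt*, *Alas2*, *Pmel*, *Dct* and *Col1a1* as higher in het, at an FDR under 0.05.

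Other lists moved as well between the WT groups, on the TMM scale. At day 14 against day 2, 11.7% of all genes were higher and 11.5% lower. Of 14 beta- and gamma-crystallins 13 (list median 1.74) and of 14 fibre genes 11 (1.97) were higher, and none was lower. With library size alone 5 and 6 of these lists were higher and 1 and 2 lower, where 157 of 13938 genes were higher and 82.0% lower. On the TMM scale all 8 macrophage markers were lower (-3.45), as were 5 of 6 tested pigment cell markers (-2.79), and 5 of 8 photoreceptor markers were higher (4.0). Of 10 vessel markers 4 were lower and 1 higher (-1.83), and of 7 epithelial genes 3 were lower and 1 higher. Of 17 transcription factors 2 were lower and 2 higher, a share near the 23.2% of all genes called. None of 5 skeletal muscle or 5 erythrocyte markers was called. The summed CPM at day 2 and day 14 was 6.34 to 14.7 and 0.533 to 2.31 for macrophage, 17.2 to 31.0 and 3.19 to 4.47 for pigment cell, and 10.6 to 42.3 and 21.8 to 784 for photoreceptor markers. The part of these cells in the differences of the members between the WT groups was not tested.

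The genes most like each member were found by the Pearson correlation of log2 CPM over the 18 libraries, after the mean of each line had been removed; libraries share scaling and group effects, so these are descriptions. For *Hspb1* they were *Gpsm2*, *Ceacam10* and 9330175E14Rik (r = 0.97 each), and for *Hspb6* they were *Sirt2*, *Faim2* and *Chrng* (0.95 each). *Cryaa* was most like *Tbcb*, *Gpx1* and *Cryba1* (0.97 each), and *Cryab* like *Metrnl* (0.86), *Shisa4* (0.85) and *Crygn* (0.83). The nearest genes were *Mrpl54* for *Hspb2* (0.87), *Palld* for *Hspb3* (0.87) and the long RNA *Gm13830* for *Hspb8* (0.77). Among the members themselves *Hspb1* and *Hspb6* (0.84) and *Cryaa* and *Hspb6* (0.81) were the most alike, *Cryaa* and *Cryab* reached 0.59, and *Hspb8* ran against *Cryab* (-0.45).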

How the data were processed

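Lens RNA had been made into poly-A libraries and sequenced as single reads of 50 bases. The authors aligned the reads to GRCm38 with STAR 2.0.4b and counted uniquely aligned, unambiguous reads per Ensembl gene with featureCounts 1.4.5; the strand setting is not given in the sources used here. The deposited table holds these raw counts; the deposited RPKM, computed by the authors with edgeR, were used only to compare genes. Genes listed on several identical lines were counted once (40800 of 41422 lines). Deposited CPM and moderated log2 CPM were not used.

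With edgeR 4.0.16 (R 4.3.3), counts were filtered with filterByExpr, scaled by TMM and fitted in 1 quasi-likelihood model with robust dispersions over all 18 libraries and 6 groups. All p-values of a contrast were adjusted together. The study's own filter (genes with at least 1 count) gave infinite prior degrees of freedom and was tried as an alternative, as were DESeq2 1.42.0, other scalings, a likelihood ratio test, a replicate block, each line alone and leaving out each library. The fits were tested on data simulated for *Cryaa*-R49C-homo against WT. The main edgeR test recovered 26.9% of changes of 1 on the log2 scale and 78.7% of changes of 2. Of its calls 2.94% were false, against 13.1% with DESeq2. Ratios were compared with exact permutation tests (scipy 1.17.1).

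The members and gene lists were chosen with earlier results of these data known. Groups came from the sample titles, because the genotype field of the 6 *Cryab* mutant libraries names the other line. Libraries are pools of several lenses; no pair was identical or within sampling noise, and the p-values measure the spread between pools. Named were the members, other genes of the family, up to 3 genes of each list with the lowest FDR in a contrast with WT, and 3 genes most like each member. The *Cryab*-WT and *Cryab*-R120G-homo libraries of the same number deviated together weakly (r = 0.28, 0.18 and 0.16). No label pairs them, so they were not treated as paired in the main fit. The block changed no call of a member there. Gene positions are from GENCODE vM21.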

Additional observations from a re-analysis of the deposited data

Results flagged for a closer look

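The homo effect on *Hspb1* differed between the lines by 5.72 on the log2 scale, since it was -5.51 in the *Cryaa*-R49C line at day 2 and 0.21 in the *Cryab*-R120G line at day 14. It was picked out because the difference itself passed the test, with an FDR of 3.56e-05 from edgeR's quasi-likelihood test and a range of 5.28 to 6.37 over 19 alternatives, all called. For *Hspb6* the difference was 1.45, from -1.52 and -0.06, with an FDR of 0.0198 and a highest FDR of 0.106 over its alternatives. Line and age cannot be told apart in either result. Groups of 3 libraries are too small for a test of single outlying libraries.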

How the results depend on the processing

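The falls of *Hspb1* and *Hspb6* in *Cryaa*-R49C-homo lenses, against WT and against het, kept their direction and their call under every alternative run. *Cryaa* there became called with the likelihood ratio test (-1.18 and -1.21), with the replicate block (-0.85 and -0.91) and without homo replicate 1. With library size alone the number of members with a different homo effect in the lines was 1 instead of 2. Leaving out 1 library gave a number of 1 to 3. Other counts of called members, without regard to direction, stayed within 1.5 times of the value reported. Between the WT groups the counts by direction did not. The main fit called 5 members higher there and 1 lower. With library size alone *Cryab* and *Hspb1* were called higher, and *Hspb3* and *Hspb8* lower. Scaling to library size alone moved the median of all genes, to 0.21, 0.41 and 0.21 in the *Cryaa* line (het against WT, homo against WT, homo against het), to 0.21, 0.37 and 0.15 in the *Cryab* line and to -1.61 between the WT groups. Relative to these medians the values kept their sign in each comparison of a mutant group with WT or het named here. It turned the sign of *Hspb8* in het against WT of the *Cryaa* line (0.15), of *Cryab* in homo against WT (0.15) and of *Hspb2* in homo against het (0.21; 0.047 with the likelihood ratio test and 0.0080 with the block). In the *Cryab* line it turned *Cryaa* (0.085) and *Hspb3* (0.021) in het against WT, *Cryaa* (0.16), *Cryab* (0.032), *Hspb2* (0.28) and *Hspb6* (0.32) in homo against WT, and *Cryaa* (0.073), *Cryab* (0.040) and *Hspb1* (0.13) in homo against het. Between the WT groups it turned *Hspb2* (-0.48), *Hspb3* (-1.39) and *Hspb6* (-0.58). The difference in homo effect of *Cryab* was 0.0068 and became -0.12 with library size alone, -0.018 with every gene kept, -0.0092 with scaling without crystallins and Gm42418 and -0.025 with the block. With library size alone none of these turned values was called apart from *Hspb3* between the WT groups (FDR = 1.74e-05); *Hspb2* and *Hspb6* had been called there as higher and lost the call (FDR = 0.0534 and 0.0701).

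Leaving out 1 library turned the sign of uncalled values only. For het against WT in the *Cryaa* line the ranges were -0.17 to 0.15 (*Cryaa*), -0.15 to 0.26 (*Cryab*), -0.12 to 0.28 (*Hspb2*) and -0.22 to 0.017 (*Hspb8*). For homo against WT they were -0.050 to 0.22 (*Hspb2*) and -0.043 to 0.23 (*Hspb3*), and for homo against het -0.18 to 0.23 (*Hspb2*). In the *Cryab* line, homo against WT gave -0.015 to 0.48 (*Hspb1*), -0.18 to 0.033 (*Hspb2*) and -0.20 to 0.064 (*Hspb6*), and homo against het gave -0.22 to 0.0046 (*Cryaa*), -0.28 to 0.021 (*Cryab*), -0.25 to 0.13 (*Hspb1*) and -0.078 to 0.21 (*Hspb8*). The difference in homo effect of *Cryab* ran from -0.13 to 0.20, *Hspb3* between the WT groups from -0.059 to 0.21, and the log2 *Cryaa* to *Cryab* ratio of *Cryab*-R120G-homo against WT from -0.033 to 0.24.

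The replicate block moved the calls of *Cryaa* given above and that of *Hspb8* between the WT groups (-1.08, FDR = 0.0663), and changed no other call of a member. Same-numbered libraries are not said to share a litter or batch. Only between *Cryab*-WT and homo did every library correlate more with its own number than with another. The titles of same-numbered *Cryab* het and homo libraries hold consecutive identifiers, whose meaning is not given. *Hspb8* and *Hspb7* were limited by depth, with at most 81 and 6 counts in a library.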
